A study of Mus musculus with 2 samples.

Results

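The data described here are the UMI (unique molecular identifier) counts of 8 endothelial genes and of *Vegfa*, 9 of the 19465 genes measured, in Visium spatial transcriptomics sections of healing mouse femurs. The 9 genes were chosen by name, with earlier results of these data known. *Pecam1*, *Cdh5*, *Kdr*, *Flt1*, *Emcn*, *Eng*, *Tek* and *Vwf* mark the cells that line blood vessels, and *Vegfa* encodes vascular endothelial growth factor A. All 9 symbols occurred once in both sections. The series consisted of 1 Control and 1 Loaded section, so no comparison between them had a replicate check, and no p-value is given.

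Both mice were female bone cell reporter (BCR) animals, which carry fluorescent labels on the osteoblast gene *Ibsp* and the osteoclast gene *Acp5*. Both received a mid-diaphyseal defect of the right femur, held by an external fixator, at 12 weeks of age and were euthanized at 17 weeks. The Loaded femur received cyclic compression from week 3, in 3 sessions per week of 3000 cycles at 10 Hz with forces between 8 and 16 N, and the Control femur was sham-loaded. Tissue was collected in week 5, 10 hours after the last session. In this assay, gene-specific probe pairs bind RNA in a 5 μm FFPE section and are captured on spots 55 μm wide and 100 μm apart, so that a spot can hold several cells of different types.

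Spots were divided into 3 regions. Bone is the set of spots that the study marked as bone between the middle pins (131 spots in Control, 146 in Loaded). The rim is every other spot within 250 μm of a bone spot (253 and 264 spots), and the rest is all remaining tissue (1514 and 1021 spots). The regions held 557259, 1052870 and 7374083 UMIs in Control and 409020, 1015622 and 3484165 UMIs in Loaded. Levels below are UMIs of a gene per 100000 UMIs of its region, which sets the regions at equal depth. Brackets hold 95% intervals that cover counting error only. In spots, fewer endothelial cells, less RNA per endothelial cell and UMIs of these genes from other cells cannot be told apart. The tissue around the bone differed between the sections. A list of 22 skeletal muscle genes took 31.6% of the UMIs of the Control rest and 20.8% of the Loaded rest, 19.2% and 12.3% in the rim, and 16.4% and 8.61% in bone.

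**Figure D1:**
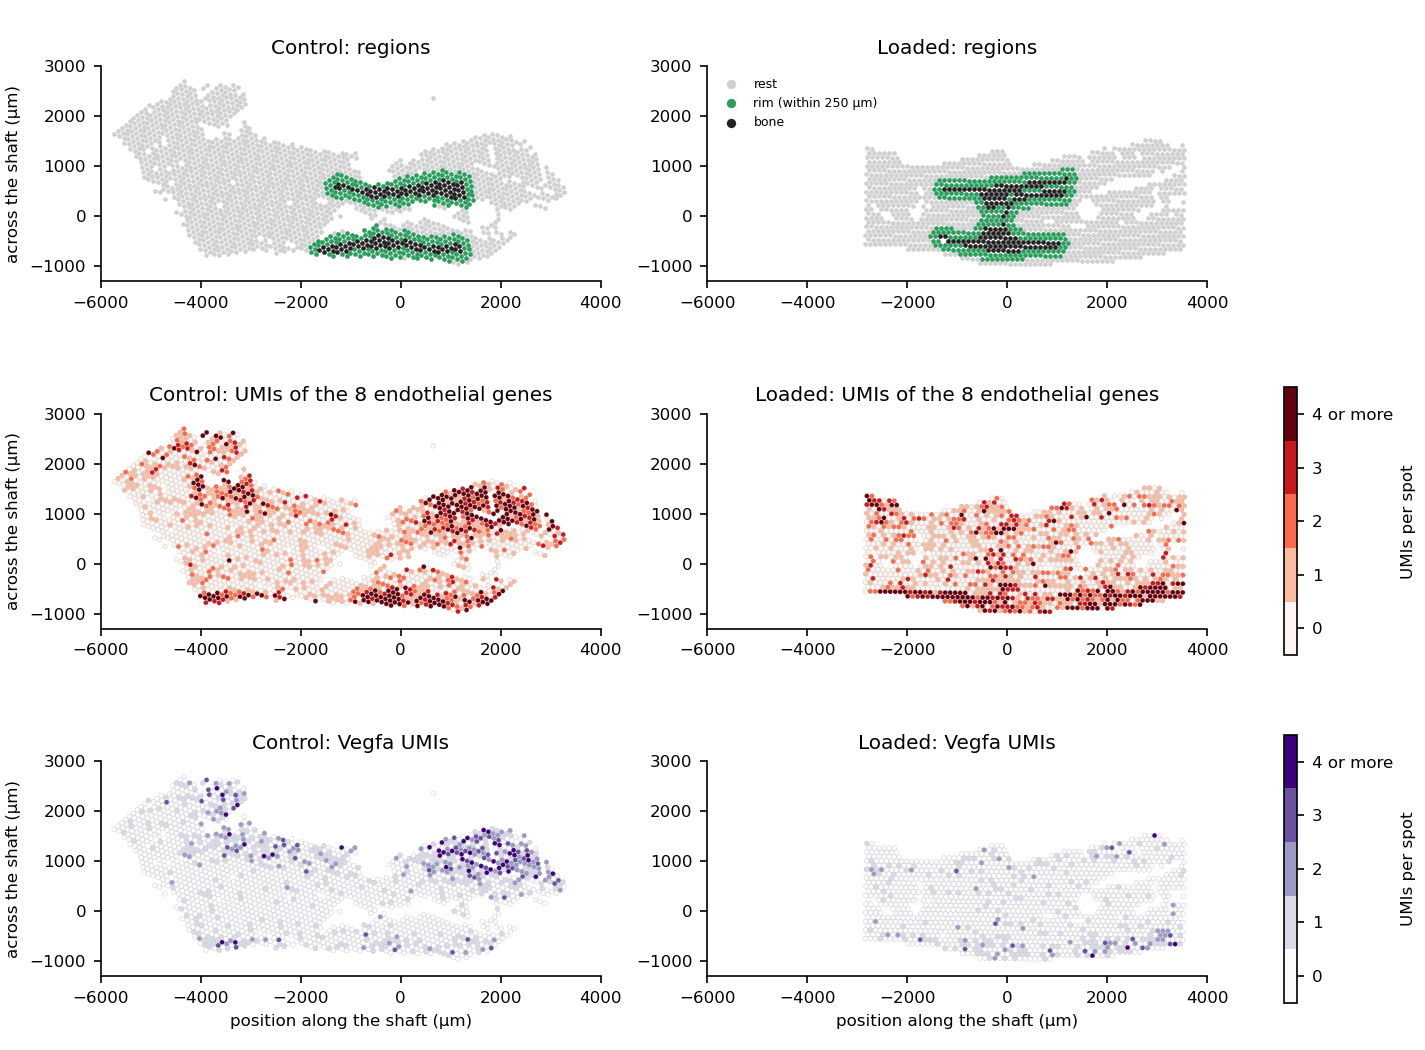
Spots of the Control (left) and Loaded (right) sections by position along and across the shaft (μm), coloured by region (top), by UMIs of the 8 endothelial genes (middle) and by *Vegfa* UMIs (bottom). Counts per spot are not scaled to depth, and 4 stands for 4 or more. Endothelial UMIs lay along the bone and in the soft tissue of both sections. Spots with several *Vegfa* UMIs lay mostly outside bone and rim, as did most spots of both sections.

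Blood vessels grow into a fracture callus and bring the cells and nutrients that bone formation needs. VEGF-A, released by hypoxic and bone-forming cells among others, binds the receptors VEGFR2 (*Kdr*), which carries most of the growth signal, and VEGFR1 (*Flt1*), which binds the ligand tightly and signals weakly. *Tek* encodes TIE2, the receptor of the angiopoietins, and *Eng* encodes endoglin, a co-receptor for ligands of the TGF-β family. VE-cadherin (*Cdh5*) and PECAM-1 (*Pecam1*) hold endothelial cells together, endomucin (*Emcn*) marks capillaries and sinusoids of bone, and von Willebrand factor (*Vwf*) is the clotting protein stored by endothelial cells and megakaryocytes.

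Because the receptors of VEGF-A are central to the values below, the promoters of both are shown as reference, from 250 bases before to 50 bases after the RefSeq start (build GRCm38.p6), 5′ to 3′ on the strand of the gene. Capitals mark AGGAAG or CCGGAA, or CTTCCT or TTCCGG on the other strand, which hold the GGAA core bound by ETS factors, the family of endothelial regulators that includes ERG. The search of AGGAAG found a match in 35.4% of 32851 promoters of this length and that of CCGGAA in 14.9%, so a match is common.
*Kdr*, chr5:75978406-75978705, minus strand: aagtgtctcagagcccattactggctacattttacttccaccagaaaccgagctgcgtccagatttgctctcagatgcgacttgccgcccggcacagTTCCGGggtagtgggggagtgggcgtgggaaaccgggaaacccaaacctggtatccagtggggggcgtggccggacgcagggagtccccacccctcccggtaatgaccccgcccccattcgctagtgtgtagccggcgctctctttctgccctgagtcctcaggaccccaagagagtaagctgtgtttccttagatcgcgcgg
*Flt1*, chr5:147725962-147726261, minus strand: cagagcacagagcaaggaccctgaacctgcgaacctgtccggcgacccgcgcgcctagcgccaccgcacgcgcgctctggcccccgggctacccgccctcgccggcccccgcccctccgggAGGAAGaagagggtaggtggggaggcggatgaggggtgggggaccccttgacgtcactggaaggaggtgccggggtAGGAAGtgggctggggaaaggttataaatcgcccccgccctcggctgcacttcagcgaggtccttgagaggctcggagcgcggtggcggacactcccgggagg
The *Flt1* window holds 2 matches and the *Kdr* window 1. The genes themselves span chr5:75932827-75978458 (*Kdr*), chr5:147561604-147726011 (*Flt1*) and chr17:46016993-46032369 (*Vegfa*), all on the minus strand in GENCODE M21 (GRCm38).

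Relative to the median of all genes, *Vegfa* was the member farthest from it in the rim and in the rest, and it was lower in Loaded in both. Its level in Control was 7.36 (5.28 to 9.98) in bone, 10.4 (8.50 to 12.5) in the rim and 11.9 (11.2 to 12.7) in the rest, from 41, 109 and 880 UMIs. In Loaded it was 8.07 (5.55 to 11.3), 6.89 (5.37 to 8.71) and 7.63 (6.74 to 8.61), from 33, 70 and 266 UMIs. In Control the level was thus higher in the rest than in bone, while the intervals of bone and rim overlapped. In Loaded the intervals of the 3 regions overlapped. Ordered from high to low, they ran Control rest, Control rim, Loaded bone, Loaded rest, Control bone and Loaded rim, and the intervals of neighbours overlapped throughout.

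Loaded over Control, the log2 ratio of *Vegfa* was 0.13 (-0.57 to 0.83) in bone, -0.59 (-1.04 to -0.14) in the rim and -0.64 (-0.85 to -0.44) in the rest. Over all genes with at least 30 UMIs in the pair of regions, the median log2 ratio was 0.11, 0.16 and 0.39. *Vegfa* lay at the 51st percentile of these genes in bone, at the 9th in the rim and at the 4th in the rest. In bone, thinning each spot to 1000 UMIs moved the ratio to -0.78, from 12 Control and 7 Loaded UMIs. In the rim the ratio depended on the width: it was -0.03 with a rim of 150 μm and -0.55 with a rim of 350 μm. With scran size factors in place of UMI totals it was -0.75 in the rim and -1.03 in the rest. Counted per UMI of the 8 endothelial genes, which needs no scaling, *Vegfa* gave 17.2, 25 and 47.3 UMIs per 100 endothelial UMIs in Control bone, rim and rest, and 17.6, 14.99 and 19.7 in Loaded. The log2 ratio of these values was 0.03 (-0.73 to 0.79) in bone, -0.74 (-1.23 to -0.25) in the rim and -1.26 (-1.49 to -1.04) in the rest. These ratios also hold the change of the endothelial sum, which was at 0.10, 0.15 and 0.62 per region total.

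The share of muscle differed between the sections, so spots outside the bone were also compared within 4 classes of muscle share, a division chosen after the values were seen. *Vegfa* was lower in Loaded in each class. Where muscle genes took under 5% of a spot's UMIs, its level was 11.4 in Control and 5.67 in Loaded, a log2 ratio of -1.005 (-1.70 to -0.35), from 80 and 26 UMIs. From 5 to 10% the log2 ratio was -0.72 (-1.21 to -0.24), from 10 to 20% it was -0.47 (-0.88 to -0.05), and from 20% upward -0.67 (-0.95 to -0.40). The endothelial sum did not move one way over the same classes: its log2 ratio was -0.30 (-0.58 to -0.03), 0.11 (-0.10 to 0.32), 0.30 (0.11 to 0.49) and 0.43 (0.28 to 0.58). The classes divide spots by muscle share only, and other cells differed too. Loaded over Control, adipocyte genes had a median log2 ratio of 1.78 in the rim and -1.09 in the rest. Granulocyte genes were at 1.86 and 1.55, and macrophage genes at 0.46 and 1.07. The part of these cells in the *Vegfa* ratios was not tested.

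**Figure D2:**
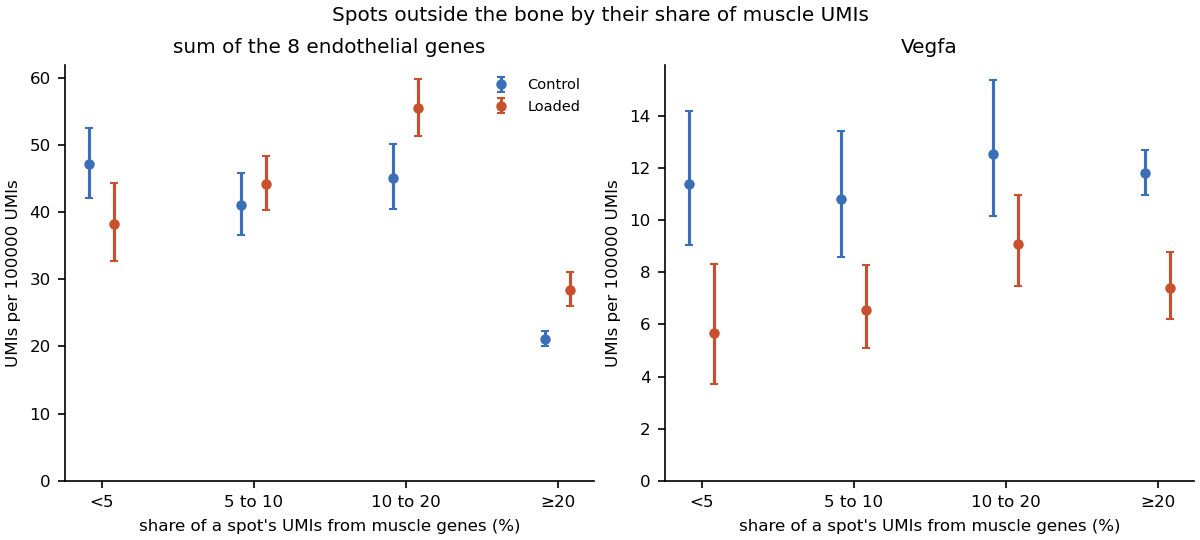
Level (UMIs per 100000 UMIs) of the 8 endothelial genes together (left) and of *Vegfa* (right) in spots outside the bone, grouped by the percentage of a spot's UMIs that came from 22 muscle genes, for Control (blue) and Loaded (orange). Points are sums over the spots of a class and bars are 95% counting intervals. The Loaded point for *Vegfa* lies below the Control point in all 4 classes, while the order changes between classes for the endothelial sum.

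Over all spots, the intervals of the 8 endothelial genes together overlapped between Control and Loaded bone. Their sum was 42.7 (37.5 to 48.5) in Control bone and 45.7 (39.4 to 52.8) in Loaded bone, from 238 and 187 UMIs, a log2 ratio of 0.10 (-0.19 to 0.38). It was 41.4 (37.6 to 45.5) and 46.0 (41.9 to 50.3) in the rim, a log2 ratio of 0.15 (-0.04 to 0.34). Relative to the median of all genes these ratios were -0.02 and -0.01. The rest stood apart, with 25.2 (24.1 to 26.4) in Control and 38.7 (36.7 to 40.8) in Loaded, a log2 ratio of 0.62 (0.52 to 0.72). Relative to the median of all genes there, this was 0.23, and with scran size factors the ratio was 0.24. Among spots with under 5% muscle UMIs, Loaded over Control was 0.72 in bone, -0.68 in the rim and -0.49 in the rest, so that the direction turned in rim and rest. The part of the muscle share in the difference of the rest was not tested.

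**Figure D3:**
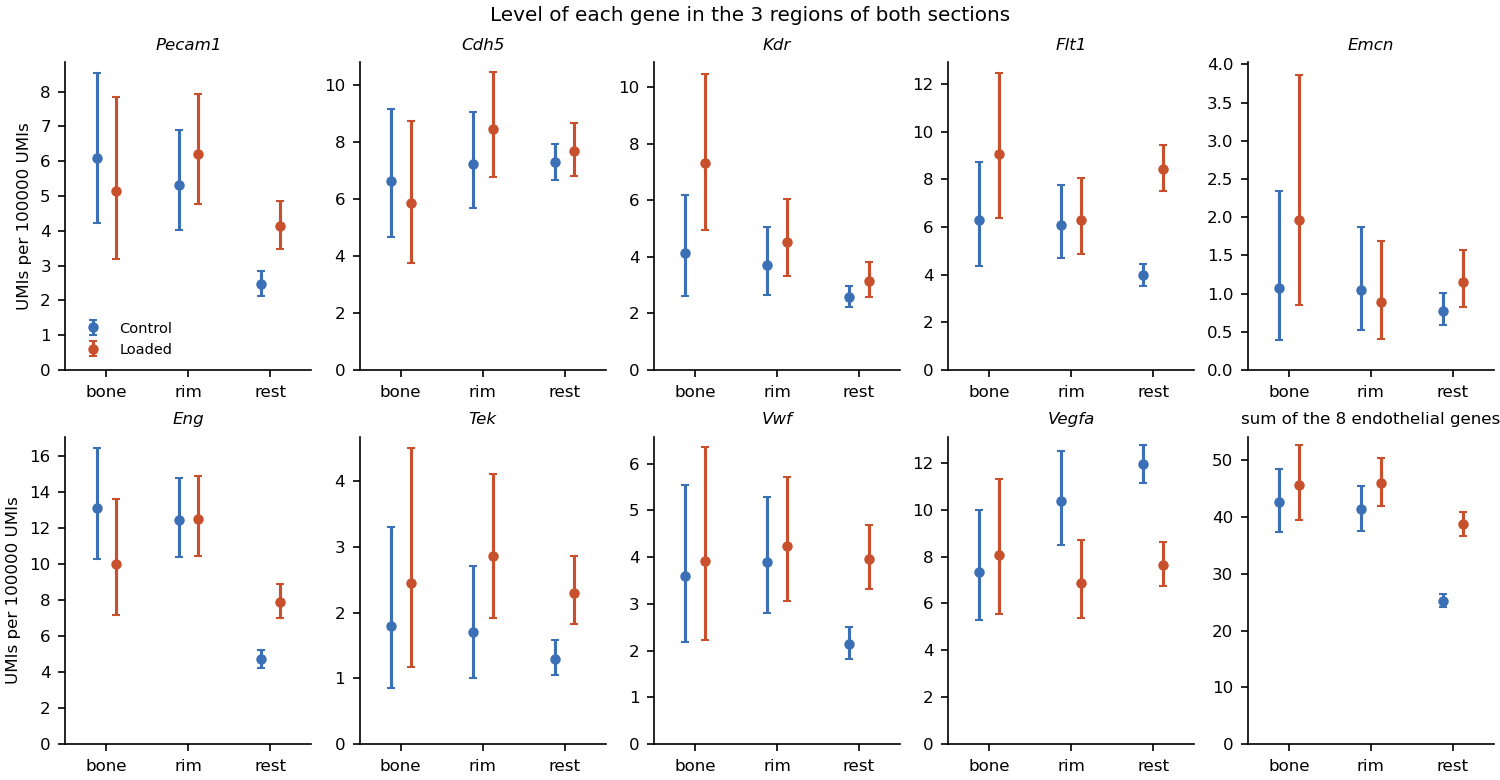
Level of each of the 9 genes and of the endothelial sum (UMIs per 100000 UMIs) in bone, rim and rest of the Control (blue) and Loaded (orange) sections, with 95% counting intervals. *Vegfa* is lower in Loaded in rim and rest, *Eng* and *Pecam1* are higher in bone and rim of Control than in its rest, and in bone the intervals of the sections overlap for every gene.

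Among the VEGF receptors, *Kdr* was the single member with enough UMIs that was past 1.5-fold in bone. It gave 23 UMIs and a level of 4.13 (2.62 to 6.19) in Control bone and 30 UMIs and 7.33 (4.95 to 10.5) in Loaded bone, a log2 ratio of 0.83 whose interval just included 0 (-0.00 to 1.68). Of the 7 members with at least 30 UMIs in bone, 1 was past 1.5-fold higher and 0 lower, where 25% and 16% of 6044 genes were. *Flt1* was at 6.28 in Control bone and 9.05 in Loaded bone, a log2 ratio of 0.53 (-0.18 to 1.24). The intervals of both receptors therefore held 0 as well as ratios well past 1.5-fold. Bone was also divided into 4 blocks, by side and by position along the shaft. *Kdr* was at 3.29, 8.86, 10.5 and 1.33 in the Control blocks and at 9.82, 5.94, 7.23 and 5.48 in the Loaded blocks. Muscle genes took 29.1% of the UMIs of the Control block at 1.33. The part of the muscle share in the *Kdr* ratio was not tested.

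The remaining members of bone pointed both ways. *Eng* was at 13.1 (10.3 to 16.5) in Control and 10.0 (7.19 to 13.6) in Loaded, a log2 ratio of -0.39 (-0.97 to 0.19). *Pecam1* gave -0.25 (-1.11 to 0.58), *Cdh5* -0.18 (-0.98 to 0.60), *Vwf* 0.12 (-0.92 to 1.15) and *Tek* 0.45 (-0.97 to 1.87). *Emcn* had 6 UMIs in Control bone and 8 in Loaded bone, too few to read a direction from (-0.86 to 2.67). Over the 6 endothelial members with at least 30 UMIs the median was -0.03, beside 0.11 over all genes with as many.

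In the rim, *Tek* (TIE2) was the member furthest above Control, with 18 UMIs and a level of 1.71 (1.01 to 2.70) in Control and 29 UMIs and 2.86 (1.91 to 4.10) in Loaded. Its log2 ratio of 0.74 (-0.16 to 1.68) was past 1.5-fold, as was that of *Vegfa* in the other direction. These were 1 and 1 of 8 members with enough UMIs, beside 21.3% of 8810 genes that were past 1.5-fold higher and 9.53% lower. The other endothelial members lay between -0.24 for *Emcn* and 0.29 for *Kdr*, each with an interval that included 0.

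In the rest, 5 of 9 members were past 1.5-fold higher in Loaded and 1, *Vegfa*, was past it lower, beside 35% and 4.95% of 11869 genes. *Flt1* was furthest, at 3.97 (3.53 to 4.46) in Control and 8.44 (7.50 to 9.46) in Loaded from 293 and 294 UMIs, a log2 ratio of 1.09 (0.85 to 1.32). *Vwf* (0.89), *Tek* (0.82), *Pecam1* (0.74) and *Eng* (0.74) followed, and *Cdh5*, with 537 and 268 UMIs, was at 0.08 (-0.14 to 0.29). A single Loaded rest spot held 22 of the 138 *Vwf* UMIs there, where no Control rest spot held more than 4. With the median of all genes at 0.39, *Cdh5* was therefore below most genes and *Flt1* above most (28th and 90th percentile). With scran size factors *Cdh5* was at -0.30. Among rest spots with under 5% muscle UMIs, *Flt1* was at -0.67 from 46 Control and 11 Loaded UMIs and *Vwf* at -1.54 from 23 and 3. *Pecam1* was at -0.32 from 23 and 7 UMIs there, and *Tek*, at -1.19, had 6 and 1. Over rim and rest together, spots of that class gave -0.27 (-0.93 to 0.36) for *Flt1*, -0.42 (-1.32 to 0.43) for *Vwf*, -0.42 (-1.27 to 0.39) for *Pecam1* and 0.45 (-1.13 to 1.99) for *Tek*. In spots of rim and rest with 20% muscle UMIs or more, *Flt1* was at 1.08 (0.72 to 1.44).

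**Figure D4:**
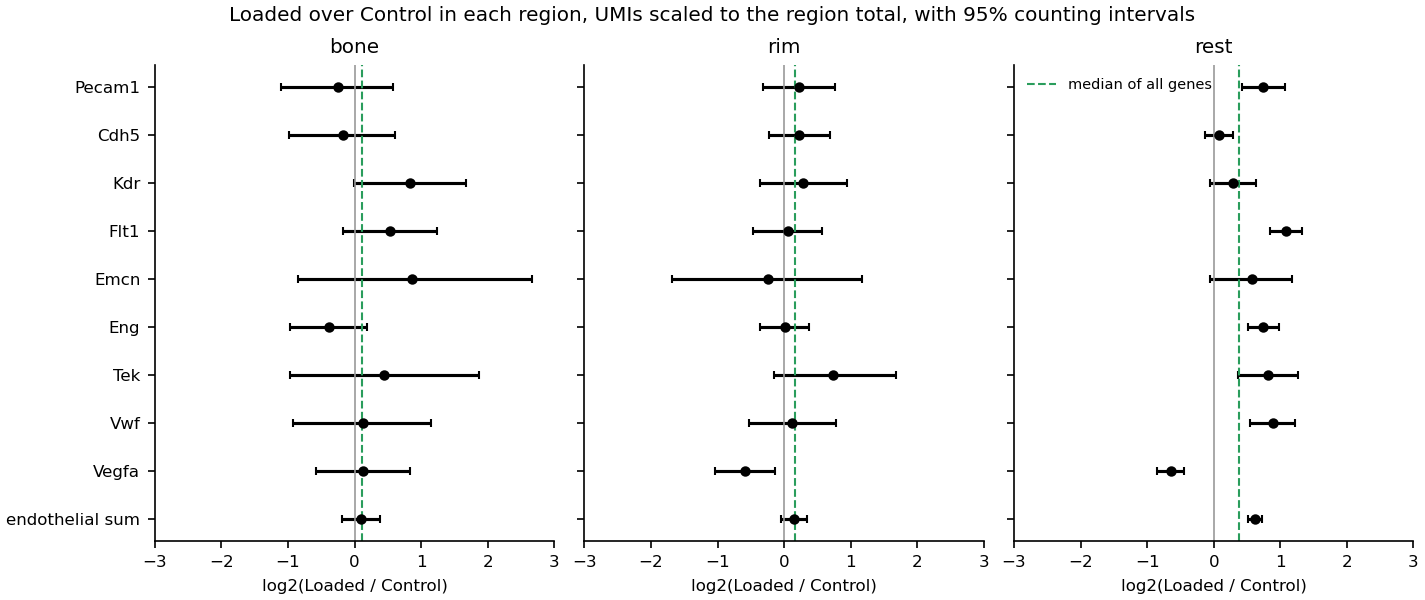
Log2 ratio of Loaded over Control for each gene and for the endothelial sum in bone, rim and rest, after scaling to the UMI total of each region. Bars are 95% counting intervals and the dashed line is the median of all genes with at least 30 UMIs in the pair of regions (0.11, 0.16 and 0.39). In bone every interval includes 0, and *Vegfa* lies below 0 in the rim and the rest.

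Within a section, and over all its spots, the endothelial sum was higher in bone and rim than in the rest, by more in Control than in Loaded. Among spots with under 5% muscle UMIs, bone over rest was instead -0.016 in Control (30 and 210 UMIs) and 1.19 in Loaded (71 and 57 UMIs), so that the order of the sections turned. The log2 ratio of the sum in bone over rest was 0.76 (0.56 to 0.95) in Control and 0.24 (0.01 to 0.46) in Loaded, where the all-gene medians were 0.46 and 0.30. With scran size factors these ratios were 0.14 and -0.02, so that the Loaded ratio changed sign. In 4 blocks, by side of the bone and position along the shaft, Control bone was at 47.2, 71.8, 29.5 and 28.8. The same blocks of Control rest were at 40.8, 48.2, 23.5 and 22.5. Those of 1 side held 2808420 and 3710434 of the 7374083 UMIs of Control rest. In Loaded, bone was at 52.9, 59.4, 43.4 and 28.3 and rest at 43.9, 53.5, 30.2 and 28.5. The part of the unequal blocks in the ratios over all spots was not tested. Rim over rest was 0.71 (0.56 to 0.87) in Control and 0.25 (0.09 to 0.40) in Loaded, with all-gene medians of 0.43 and 0.26 and, with TMM factors, values of 0.15 and -0.04. Bone over the whole rim gave 0.04 (-0.19 to 0.28) in Control and -0.01 (-0.26 to 0.24) in Loaded. Against only the rim spots between the sides of the bone, bone was higher in both, at 0.58 (0.17 to 1.01) and 0.42 (0.08 to 0.78). The all-gene medians of this last comparison were 0.26 in Control and 0.12 in Loaded.

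Over all spots, *Eng* (endoglin) was the member most enriched at the bone of Control. Its level was 13.1 in bone, 12.4 (10.4 to 14.8) in the rim and 4.72 (4.24 to 5.24) in the rest, a log2 ratio of bone over rest of 1.47 (1.09 to 1.84) and of rim over rest of 1.40 (1.10 to 1.69). *Eng* made up 30.7%, 30.05% and 18.7% of the endothelial UMIs of these regions. Against the other 7 endothelial genes its log2 ratio was 0.94 (0.49 to 1.39) for bone over rest, a value that no scaling changes. In Loaded, *Eng* was at 10.0, 12.5 and 7.89, and the same ratio was 0.13 (-0.44 to 0.68) in bone and 0.54 (0.18 to 0.90) in the rim. *Pecam1* followed *Eng*, with log2 ratios over rest of 1.31 (0.73 to 1.84) in bone and 1.11 (0.65 to 1.55) in the rim of Control. In Control spots outside the bone with under 5% muscle UMIs, *Eng* was at 12.7 (10.2 to 15.6) and *Pecam1* at 5.83. From 20% upward they were at 3.75 and 1.995. By block, *Eng* was at 19.2, 21.7, 2.11 and 6.64 in Control bone and at 8.59, 10.3, 5.13 and 3.396 in Control rest. The bone block at 2.11, where the order turned, held 1 *Eng* UMI. In Control bone over rest, macrophage genes had a median log2 ratio of 1.83 and tendon and fibrous genes one of 1.86. The part of the muscle share and of these other cells in the place of *Eng* and *Pecam1* was not tested.

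*Cdh5* (VE-cadherin) had the opposite place within the endothelial set. It made up 15.5% of endothelial UMIs in Control bone, 17.4% in the rim and 28.9% in the rest. Against the other endothelial genes, its log2 ratio of bone over rest was -1.14 (-1.71 to -0.60) in Control and -0.75 (-1.46 to -0.09) in Loaded. Its level itself hardly varied over the Control regions, at 6.64, 7.22 and 7.28. In Control spots outside the bone, *Cdh5* was at 6.12 where muscle genes took under 5% of UMIs and at 7.19 from 20% upward. The endothelial sum was at 47.1 and 21.2 in these classes. The part of the muscle share in the place of *Cdh5* was not tested. *Kdr* was the member most concentrated in Loaded bone, with 7.33 in bone, 4.53 in the rim and 3.16 in the rest. The log2 ratio of bone over rest was 1.22 (0.58 to 1.81), and 1.11 (0.42 to 1.75) against the other endothelial genes. In Control that second ratio was -0.09 (-0.81 to 0.58). In Loaded spots outside the bone, *Kdr* was at 4.58 (2.84 to 7.004) with under 5% muscle UMIs and at 2.297 from 20% upward. In Loaded rim spots between the sides of the bone it was at 5.78 (3.48 to 9.02). The intervals of the class under 5% and of these rim spots overlapped that of Loaded bone (4.95 to 10.5). The part of the muscle share in the place of *Kdr* was not tested.

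Counted by the 1.5-fold limit, 5 members were higher in Control bone than in Control rest (*Pecam1*, *Kdr*, *Flt1*, *Eng* and *Vwf*) and 1 lower (*Vegfa*), beside 43.2% and 8.34% of 10963 genes. In Loaded 2 were higher in bone (*Kdr* and *Emcn*) and 0 lower, beside 32.6% and 13.4% of 10200 genes. *Emcn* was counted from 8 UMIs in bone, with a log2 ratio of 0.77 (-0.54 to 1.88). In the rim of Control 4 were higher than in the rest (*Pecam1*, *Flt1*, *Eng* and *Vwf*) and 0 lower, beside 40.2% and 5.77% of 11144 genes. In the rim of Loaded 2 were higher (*Pecam1* and *Eng*) and 0 lower, beside 24.8% and 6.99% of 10593 genes. The counts of higher members in Loaded and in the rim of Control were thus below or near the share of all genes. The count in Control bone, 5 of 9, was not far above it.

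The rim was also divided by position: spots between both sides of the bone, which face the medullary cavity, and all other rim spots. Erythroid genes, markers of marrow, took 12.0% of the UMIs of the inner rim in Control and 9.75% in Loaded, against 0.863% and 0.954% in the outer rim. The endothelial sum was lower in the inner than in the outer rim of both sections, at 28.6 (21.9 to 36.6) and 44.7 (40.3 to 49.5) in Control and 34.1 (28.0 to 41.0) and 51.7 (46.5 to 57.4) in Loaded. The log2 ratios of inner over outer were -0.65 (-1.06 to -0.26) and -0.60 (-0.92 to -0.29). The all-gene medians were -0.21 and -0.19, and the sum lay at the 30th and 35th percentile of all genes. *Cdh5* was also lower in the inner rim of both sections, at -1.36 (-2.72 to -0.24) and -1.18 (-2.09 to -0.36), while *Kdr* was at 1.11 (0.05 to 2.11) in Control and 0.56 (-0.37 to 1.46) in Loaded. *Vegfa* differed between the sections in the outer rim, with 10.8 in Control and 6.26 in Loaded (log2 ratio -0.78, -1.34 to -0.24), and was at 8.75 and 8.21 in the inner rim (-0.09, -0.99 to 0.84).

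*Vwf* was not counted in any of the 118 inner rim spots of Control, among 217032 UMIs. The interval of its level there reaches 1.70. The inner rim of Loaded held 15 *Vwf* UMIs in 120 spots, a level of 4.56 (2.55 to 7.52). Both sections together thus stayed under the limit of 30 UMIs used for ratios, so no ratio is read from these counts. Farther between the sides of the bone, *Vwf* gave 7 UMIs in Control and 3 in Loaded. The 7 megakaryocyte genes together were at 41.9 in the inner rim of Control and 111 in that of Loaded, with 1 and 0 of them at 0. Their part in the *Vwf* count was not tested. Over the whole rim *Vwf* was alike, at 3.89 and 4.23.

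**Figure D5:**
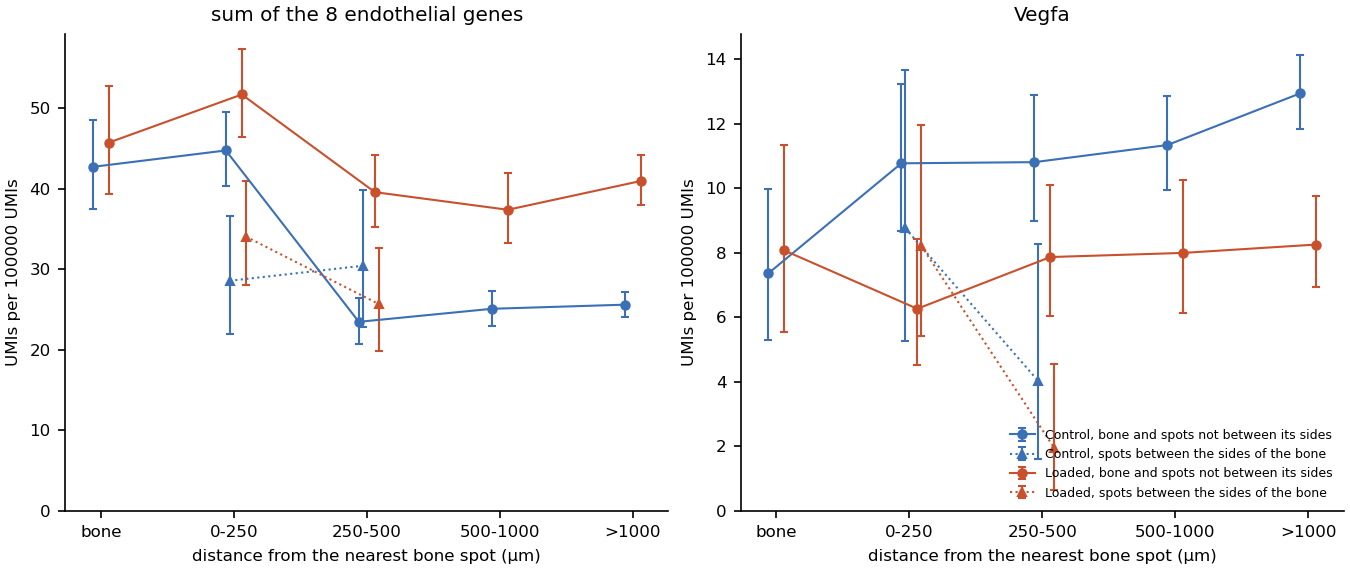
Level (UMIs per 100000 UMIs) of the 8 endothelial genes together (left) and of *Vegfa* (right) in bone and in spots at increasing distance from the nearest bone spot (μm), in Control (blue) and Loaded (orange). Circles join bone and spots that do not lie between its sides, triangles are spots between its sides, and bars are 95% counting intervals (classes of under 20 spots are not drawn). Past 250 μm the Control circles drop for the endothelial sum and stay above the Loaded circles for *Vegfa*.

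With distance, the endothelial sum outside the cavity was 44.7 within 250 μm of Control bone, 23.5 (20.7 to 26.5) from 250 to 500 μm, 25.1 from 500 to 1000 μm and 25.6 beyond. In Loaded the values were 51.7, 39.6 (35.3 to 44.2), 37.4 and 41.0. On the scale of UMI totals, the endothelial level was therefore higher next to bone in both sections, with a larger step in Control. The muscle share moved with it, from 22.1% to 34.1% at the step in Control and from 15.7% to 22.0% in Loaded, and its part in the step was not tested. *Vegfa* in the same classes was 10.8, 10.8, 11.3 and 12.9 in Control and 6.26, 7.86, 7.99 and 8.25 in Loaded. Between the sides of the bone, from 250 to 500 μm, *Vegfa* was at 4.02 (1.62 to 8.28) in Control and 1.94 (0.632 to 4.54) in Loaded, from 7 and 5 UMIs.

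Within each section the members varied along and across the bone. Each region was divided into 4 blocks, by side of the bone and by position along the shaft. The endothelial sum in the 4 blocks of Control bone was 47.2, 71.8, 29.5 and 28.8, and in those of Loaded bone 52.9, 59.4, 43.4 and 28.3. The blocks of one section thus spanned a wider range than the gap between the sections. *Eng* ranged from 2.11 to 21.7 in Control bone and from 1.83 to 14.5 in Loaded bone. *Vegfa* was at 9.88, 7.87, 6.32 and 5.31 in the blocks of Control bone and at 10.6, 8.32, 6.02 and 6.39 in those of Loaded bone. For none of the 9 genes did the Loaded blocks lie all above or all below the Control blocks in bone, where they did so for 7.56% of 6044 genes. In the rim, the *Vegfa* blocks were 8.84, 9.74, 11.7 and 11.2 in Control and 6.87, 10.8, 5.96 and 4.48 in Loaded. In the rest they were 14.5, 6.12, 12.1 and 11.8 in Control and 5.89, 11.3, 5.11 and 6.91 in Loaded. The block ranges of the sections thus overlapped in rim and rest.

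The share of spots with a UMI was read after thinning each spot to 1000 UMIs, leaving out shallower spots (0, 4 and 252 spots in Control and 15, 8 and 53 in Loaded). At least 1 of the 8 endothelial genes was found in 34.4% (26.3 to 43.1) of 131 Control bone spots and 32.1% (24.2 to 40.8) of 131 Loaded bone spots. Without thinning the shares were 72.5% and 58.2%, with median depths of 3478 and 2621 UMIs per bone spot. At equal depth the intervals of the sections thus overlapped. In the rim the thinned shares were 24.5% and 30.1%, and in the rest 21.6% (19.4 to 24.0) and 27.6% (24.8 to 30.5). *Vegfa* was found in 11.2% (9.49 to 13.0) of Control rest spots and 5.68% (4.31 to 7.33) of Loaded rest spots, and in 7.63% and 5.34% of bone spots. As a reference level, each of 10 genes not expected in femur was found in at most 1.53% of the thinned spots of any region, which is near the shares of *Emcn* (0% to 1.61%).

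Over tiles of 500 μm, the endothelial genes followed each other weakly. The correlation of log2(level + 1) between pairs of the 8 genes had a median of 0.18 over the Control tiles (range -0.29 to 0.43, 28 pairs) and of 0.19 over the Loaded tiles (-0.12 to 0.51). All such values describe tiles that share a library and differ in depth, with few UMIs per tile. *Eng* followed the sum of the other endothelial genes most closely in Loaded (0.53) and *Vwf* in Control (0.51). Among 4269 other genes, those most like the endothelial sum, by the lower of both within-section correlations, were *Igfbp7* (0.64), *Fn1* (0.63), *Vim* (0.63), *Il6st* (0.63) and *Ltbp4* (0.61). The sum itself had a correlation with the muscle share of -0.48 in Control and -0.28 in Loaded. The part of the muscle share in the likeness of these genes was not tested. *Igfbp7* encodes a matrix protein made by endothelial cells among others, *Fn1* encodes fibronectin and *Vim* vimentin. Those most like *Vegfa* were *Ppp6c* (0.42), *Poldip2* (0.41), *Acadvl* (0.41), *Ccdc124* (0.40) and *H1f0* (0.40), and with tiles of 700 μm these fell to between -0.02 and 0.30. Of the members with at least 200 UMIs in each section, *Cdh5* was the closest to *Vegfa*, at rank 59 of 4273, with a likeness of 0.31 that was 0.08 (rank 765) over tiles of 700 μm. *Flt1* was the farthest, at rank 2675, with correlations of -0.10 in Control and 0.31 in Loaded.

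Of the other VEGF ligands and receptors with enough UMIs, 1 was higher in Loaded and 1 lower in bone, 5 and 1 in the rim, and 6 and 0 in the rest, where most genes were higher too. The 4 named next were singled out after their values were seen. *Vegfb*, a ligand of VEGFR1, was lower in Loaded bone (7.09 against 13.6, log2 ratio -0.94, -1.61 to -0.31) and rim (-0.70, -1.08 to -0.32), and alike in the rest (0.02, -0.11 to 0.16). The 22 muscle genes had median log2 ratios of -0.98, -0.64 and -0.40 in these regions. The part of the muscle share in the *Vegfb* ratios was not tested. *Nrp2*, the neuropilin co-receptor, was higher in Loaded bone (23.7 against 12.6, 0.92, 0.46 to 1.38) and rim (0.56, 0.16 to 0.97). *Vegfc* and *Vegfd*, ligands of the lymphatic receptor VEGFR3, were at 0.89 (0.04 to 1.78) and 1.00 (0.06 to 2.01) in the rim. Of the 7 listed ligands and receptors beside the members, 2 had enough UMIs in bone, with 1 past 1.5-fold in each direction. In the rim 6 had enough, with 2 past it higher and 1 lower, and in the rest 6 had enough, with 2 higher and 0 lower. Over all genes the shares past it higher and lower were 25% and 16% in bone, 21.3% and 9.53% in the rim, and 35% and 4.95% in the rest.

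Among 16 further endothelial genes, 14 had enough UMIs in bone, and 1 was past 1.5-fold higher in Loaded and 4 lower, beside 25% and 16% of all genes. Their median log2 ratio was -0.02 in bone, 0.00 in the rim and 0.59 in the rest, beside -0.03, 0.22 and 0.74 for the endothelial members with enough UMIs. The furthest above was *Ecscr*, an endothelial surface protein (12 UMIs in Control and 28 in Loaded, 1.67, 0.65 to 2.78), and the furthest below *Mmrn2*, a matrix protein of vessels (26 and 7 UMIs, -1.45, -2.90 to -0.20). In the rim, the extremes over all vessel and VEGF lists were *Cxcl12*, a chemokine of stromal and endothelial cells (1.01, 0.66 to 1.37), and the arterial gene *Sema3g* (-1.98, -3.08 to -1.01). In the rest they were *Tagln*, a smooth muscle gene (1.87, 1.72 to 2.02), and *Pgk1*, a glycolytic enzyme and target of hypoxia signalling (-0.88, -1.04 to -0.72). The skeletal muscle genes had a median of -0.40 there, and the part of the muscle share in the ratio of *Pgk1* was not tested.

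Hypoxia is a known inducer of *Vegfa* transcription, and the 11 measured genes of a list for that response were set beside it. The median log2 ratio of Loaded over Control was -0.11 over the 8 with enough UMIs in bone, -0.41 over the 8 with enough in the rim and -0.08 over all 11 in the rest. The 3 genes that follow were singled out after their values were seen. *Aldoa*, a glycolytic gene that muscle also expresses strongly, was at -0.94 (-1.02 to -0.85), -0.61 (-0.66 to -0.55) and -0.59 (-0.61 to -0.57). *Epas1*, which encodes HIF-2α, was at -0.37 (-0.86 to 0.11), -0.54 (-0.85 to -0.23) and -0.32 (-0.48 to -0.17), while *Hif1a* was higher in Loaded, at 1.11 (0.33 to 1.91), 0.66 (0.12 to 1.20) and 0.71 (0.40 to 1.03). Counts past 1.5-fold were 1 higher and 1 lower in bone and in the rim, of 8 with enough UMIs in each, and 2 and 2 of 11 in the rest. The shares of all genes were 25% and 16% in bone, 21.3% and 9.53% in the rim, and 35% and 4.95% in the rest.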

How the data were processed

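The authors deposited raw UMI counts per gene and spot for 1 Control and 1 Loaded section, with the grid position of every spot, made with Space Ranger (2.0.0 per the file header) on mm10. The submitters' notes also name R 4.3.1 and Seurat. Bone spots came from the study's list of bone spot barcodes. The 557 barcodes found under tissue in both sections name the same grid positions, not shared cells. Micro-CT and histology were not analysed here.

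The members and lists were chosen with earlier results of these data known. Spots with at least 500 UMIs and 250 genes were kept: 1898 of 1962 in Control (8984212 UMIs) and 1431 of 1436 in Loaded (4908807 UMIs). Counts were summed per region and divided by its UMIs (per 100000). With 1 section per group no test was possible. Intervals (95%) are exact Poisson for sums, Clopper-Pearson for shares and conditional binomial for ratios, and cover counting error only, since neighbouring spots are not independent. Ratios over all genes used genes with at least 30 UMIs in the pair, and 1.5-fold was the limit for counts of genes. Probe efficiencies differ, so levels were not compared between genes.

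Sides of the bone were found along the direction that best separates them, chosen after the positions were seen because the planned first principal component ran oblique to the shaft. Classes of muscle share and the scale per endothelial UMI were also added after the data were seen. Outside the members, the genes named by rule were the listed vessel or VEGF pathway genes with the highest and lowest ratio in a comparison and the 5 genes most like the endothelial sum and *Vegfa* over 500 μm tiles. Of 193 listed genes, 3 (*Ccl21a*, *Ldha* and *Hba-a1*) were not used here. RefSeq promoters (GRCm38.p6) were found for 6 of 9 members. Code was tested on simulated data. Tools were Python 3.11.15 (numpy 2.4.6, scipy 1.17.1, pandas 2.3.3, matplotlib 3.10.9), R 4.3.3, scran 1.30.0 and, for TMM factors, edgeR 4.0.16.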

Additional observations from a re-analysis of the deposited data

Results flagged for a closer look

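For 5 genes the log2 ratio of bone over rest or of rim over rest had opposite signs in the 2 sections, and the difference itself was not tested. Bone over rim was not screened for this. *Flt1* was higher in rim than in rest in Control (0.61, 0.20 to 1.01) and lower in Loaded (-0.42, -0.83 to -0.03), a difference of Loaded minus Control of -1.03. Both signs of *Flt1* depended on the processing, as given below. The Control sign turned with equal weight for every spot, and the Loaded sign turned below 5% muscle. *Vegfa* was lower in bone than in rest in Control (-0.70, -1.19 to -0.25) and at 0.08 (-0.49 to 0.60) in Loaded, a difference of 0.78. For *Vwf* in bone over rest the values were 0.74 (-0.01 to 1.42) and -0.02 (-0.86 to 0.73), a difference of -0.76. *Emcn* in rim over rest gave 0.43 (-0.65 to 1.38) and -0.37 (-1.60 to 0.69), a difference of -0.81. *Cdh5* in rim over rest gave -0.01 (-0.38 to 0.34) and 0.14 (-0.23 to 0.49), a difference of 0.15. In *Vwf*, *Emcn* and *Cdh5* both intervals included 0.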

How the results depend on the processing

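For the endothelial sum, the log2 ratios of the main scale were 0.10, 0.15 and 0.62 for Loaded over Control in bone, rim and rest, 0.76 and 0.24 for bone over rest in Control and Loaded, and 0.71 and 0.25 for rim over rest. Scaling moved the last 5 of these most. They were 0.24, 0.14, -0.016, 0.26 and 0.0079 with scran size factors, and 0.18, 0.092, -0.17, 0.15 and -0.042 with TMM factors, because these scales add between -0.67 and -0.24 to every gene there. With totals that leave out the 20 most abundant genes, Loaded over Control in the rest was 0.38, Control bone over rest 0.45 and Control rim over rest 0.46. With equal weight for every spot the rest gave 0.38 and Control rim over rest 0.36. With only those spots where muscle genes took under 5%, the 7 values were 0.72, -0.68, -0.49, -0.016, 1.19, 0.95 and 0.75. Thinned to 1000 UMIs, the rest gave 0.39 and rim over rest 0.26 in Control and 0.087 in Loaded. A rim of 150 μm gave 0.42 for Loaded rim over rest and a rim of 350 μm gave 0.49 for Control. Leaving out 1 block at a time gave ranges, in the order above, of -0.32 to 0.32, -0.31 to 0.49, 0.36 to 0.76, 0.60 to 0.91, -0.17 to 0.52, 0.42 to 1.05 and 0.10 to 0.52 with blocks along the planned axis, and -0.19 to 0.34, -0.30 to 0.50, 0.35 to 0.76, 0.57 to 0.90, 0.14 to 0.39, 0.42 to 1.01 and -0.080 to 0.56 with blocks by side of the bone. Among single-gene ratios whose main interval left out 0, the sign turned in 10 recomputed values. Ratios whose main interval included 0, such as *Kdr* (-0.089) and *Cdh5* (-0.30) in the rest with scran size factors, also changed sign under some alternatives and are not listed. Of the 10 values whose main interval left out 0, those in the rest were *Pecam1* (-0.32), *Flt1* (-0.67), *Tek* (-1.19) and *Vwf* (-1.54), all below 5% muscle. *Flt1* in Control bone over rest was at -0.0067 with TMM factors and -0.41 below 5% muscle, in Control rim over rest at -0.19 with equal weight, and in Loaded rim over rest at 0.70 below 5% muscle. *Vwf* in Control rim over rest was at -0.026 with equal weight and -0.98 thinned. With 700 μm tiles the likeness to *Vegfa* was -0.019 for *Poldip2* and -0.0097 for *Ccdc124*. *Vegfa* stayed below Control in the rim (-0.82 to -0.03) and rest (-1.35 to -0.47) in every alternative run. The cause of these moves was not tested. No paired analysis was possible because each group has 1 section. Counts of 6 to 73 UMIs per member in bone, and 1 section per group, limit what could be seen.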

Other observations

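Spots with *Vegfa* and spots with an endothelial UMI overlapped in part. At 1000 UMIs per spot, an endothelial UMI was found in 28.4% of the Control rest spots that held *Vegfa* and in 20.8% of those that did not, and in 40.0% and 26.8% in Loaded. In bone the shares were 50% of 10 and 33.1% in Control and 57.1% of 7 and 30.6% in Loaded. These shares come from 1 library each and are given as values.

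Within sections, the extremes of the vessel and VEGF lists were *Pdpn*, a lymphatic gene that osteocytes also express (bone over rest in Control, 2.40, 1.89 to 2.90), *Nrp2* (bone over rest in Loaded, 1.97, 1.61 to 2.32), *Sema3g* (rim over rest in Control, 2.37, 1.78 to 2.95) and *Robo1* (rim over rest in Loaded, 1.36, 0.29 to 2.40). The lowest were *Car9* (-2.44, -7.77 to 0.08), *Fgf2* (-1.83, -4.14 to -0.24), *Ankrd37* (-1.04, -2.71 to 0.25) and the smooth muscle gene *Myh11* (-1.88, -2.53 to -1.29) in the same order.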
